A study of Mus musculus with 2 samples.

Results

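This section describes 10 genes whose products detect foreign or misplaced nucleic acid, or keep such ligands and their detection in check. They are *Ddx58*, *Ifih1*, *Dhx58*, *Mavs*, *Zbp1*, *Tlr3*, *Eif2ak2*, *Adar*, *Trex1* and *Samhd1*, and they were taken by gene name from 37074 gene names on the arrays, with every probe that carries the name. This gave 22 of 56605 probes. Expression was measured in cultured primary hepatocytes of C57BL/6 mice, harvested 24 h after seeding. *Drp1*LiKO cells came from mice with floxed *Drp1* alleles and the *Alb-Cre* transgene (*Alb-Cre* Tg/+ *Drp1* flox/flox), in which the albumin promoter drives Cre and so directs the deletion to the hepatocyte lineage and not to the macrophages or endothelial cells of the liver. Control cells are labeled wild type, and the methods describe them as from floxed sibling littermates without the transgene (*Drp1* flox/flox), so both groups carried the floxed alleles. Neither group had received LPS as far as the labels state, and the methods speak of purchased young adult male C57BL/6 J mice without stating the age, sex or number of the mice behind each array. The question was which transcripts differ once the mitochondrial fission factor Drp1 is lost.

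There was 1 array per genotype, both on 1 slide and in 1 scan. No replicate exists, so no test was made, no p-value is given, and every difference describes these 2 arrays. The deposited intensities were background-corrected by the scanner software. Signals are given as deposited, whereas log2 ratios (*Drp1*LiKO minus control) were taken after scaling each array to its 75th percentile, a signal of 313 in control cells and 356 in *Drp1*LiKO cells. A ratio is therefore lower by 0.18 on the log2 scale than the raw signals give. The Z score of a ratio is its distance from the mean of the 30275 probes compared, in SDs of those probes. The study used a Z score too, but over which probes is not given in the sources used here, and its calls and those made here differ in part. Its list of immune system process genes, drawn from those it selected as higher, holds *Ddx58*, *Ifih1*, *Dhx58* and *Zbp1*. Here *Ddx58* and *Ifih1* fell short of a Z score of 2 by their brightest probes. A Z score of 2 corresponded here to a log2 ratio of 1.30, or 2.46-fold. Each gene is represented by its brightest probe. The error given with a ratio is the SD that the noise between spots of 1 array would cause, which holds nothing of the variation between mice or cultures.

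As background, RIG-I (*Ddx58*) and MDA5 (*Ifih1*) are helicases that bind viral or misplaced double-stranded RNA in the cytosol, and LGP2 (*Dhx58*) is their relative without the signaling domain. RIG-I and MDA5 signal through MAVS, an adaptor on the outer mitochondrial membrane, toward type I interferon. TLR3 detects double-stranded RNA in endosomes, ZBP1 binds left-handed Z-form nucleic acid and can trigger cell death, and PKR (*Eif2ak2*) halts translation when it binds double-stranded RNA. ADAR1 edits self RNA, TREX1 degrades stray DNA and SAMHD1 depletes deoxynucleotides, and each restrains the sensors. Interferon itself induces many of these genes, in hepatocytes as in macrophages.

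The highest ratios of the group belonged to *Zbp1* and *Dhx58*, and how far they can be read depends on their probes. A part of each probe is therefore shown, 30 of its 60 bases, together with 30 bases around the start of those genes whose promoter held an interferon-stimulated response element. The probe stretches, written 5′ to 3′, are bases 13 to 42 of both *Zbp1* probes and bases 20 to 49 of the detected *Dhx58* probe.

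*Zbp1*, probe at base 651 of NM_001139519: gaacccacagagatcttcttgcttctgcct
*Zbp1*, probe at base 1783 of NM_021394: tgaaagtacatgtaacaccaaccaggggat
*Dhx58*, probe at base 2279 of NM_030150: attattatgccatgatgttctaagaactac

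The first of these differed from all other probes of the group in how often its letters recurred elsewhere. Over at least 40 bases at 75% identity or more, it matched promoters of 26 other genes among 27025 in the RefSeq table, whereas each of the other 21 probes matched at most 2. These limits were chosen after the matches were seen. On the array itself it matched probes of 4 other gene names, against at most 2 for any other probe of the group. How much RNA of other genes bound to it was not tested.

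RefSeq promoters (GRCm38.p6), each from 250 bases before to 50 bases after a transcript start, were at hand for 8 of the 10 genes, in 11 promoters. *Zbp1* and *Dhx58* had no entry. The interferon-stimulated response element was searched for as GAAANNGAAA on both strands. It stood in 3 of the 11 promoters, those of *Ddx58*, *Ifih1* and *Eif2ak2*, and in 3.44% of all 32851 promoters of this length. In all 3 it lay after the start, within the first bases of the transcript. The sequences are written 5′ to 3′ on the strand of the gene, which is the minus strand in each case, with the element in capitals.

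*Ddx58*, chr4:40239804-40239833: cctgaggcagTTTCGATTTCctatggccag
*Ifih1*, chr2:62646206-62646235: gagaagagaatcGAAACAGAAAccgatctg
*Eif2ak2*, chr17:78882535-78882564: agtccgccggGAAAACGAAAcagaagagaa

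The element spanned bases 3 to 12 of the *Ddx58* transcript, where it reads on the opposite strand, bases 33 to 42 of *Ifih1* and bases 19 to 28 of *Eif2ak2*. A second element that responds to interferon, the gamma-activated site TTCNNNGAA, was found in a promoter of *Adar*, *Eif2ak2* and *Samhd1*, against 8.30% of all promoters. These are matches of letters and no measure of binding. The 3 genes with the first element had log2 ratios of 0.99, 1.04 and 0.25.

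Of the 22 probes, 18 were well above background on at least 1 array and were compared, 17 of them on both arrays. The other 4, of *Ifih1*, *Dhx58* and *Samhd1*, were not well above background on either. All 10 genes kept at least 1 probe. Their log2 ratios ran from -0.14 to 2.38 with a median of 0.51, and 9 of 10 were above 0. Over all 20165 gene names compared the median was -0.05 and 44.5% were above 0. Past the Z threshold, 2 of the 10 genes (20%) were higher in *Drp1*LiKO cells and 0 were lower, where 3.5% of all genes compared were higher and 2.81% lower. Counted by probes, 5 of 18 were past the threshold on the high side, against 2.94% of all probes. Of these 5, the second probe of *Zbp1* was compared only through its signal in *Drp1*LiKO cells. Among the 17 measured on both arrays 4 were past the threshold, against 2.06% of all probes so measured. The genes past it were *Zbp1* and *Dhx58*. With *Ifih1*, 3 genes (30%) were at least 2-fold higher, against 5.32% of all genes, and 0 were 2-fold lower, against 4.59%. The further probes past it were 2 of *Ddx58* and the second of *Zbp1*.

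**Figure D1:**
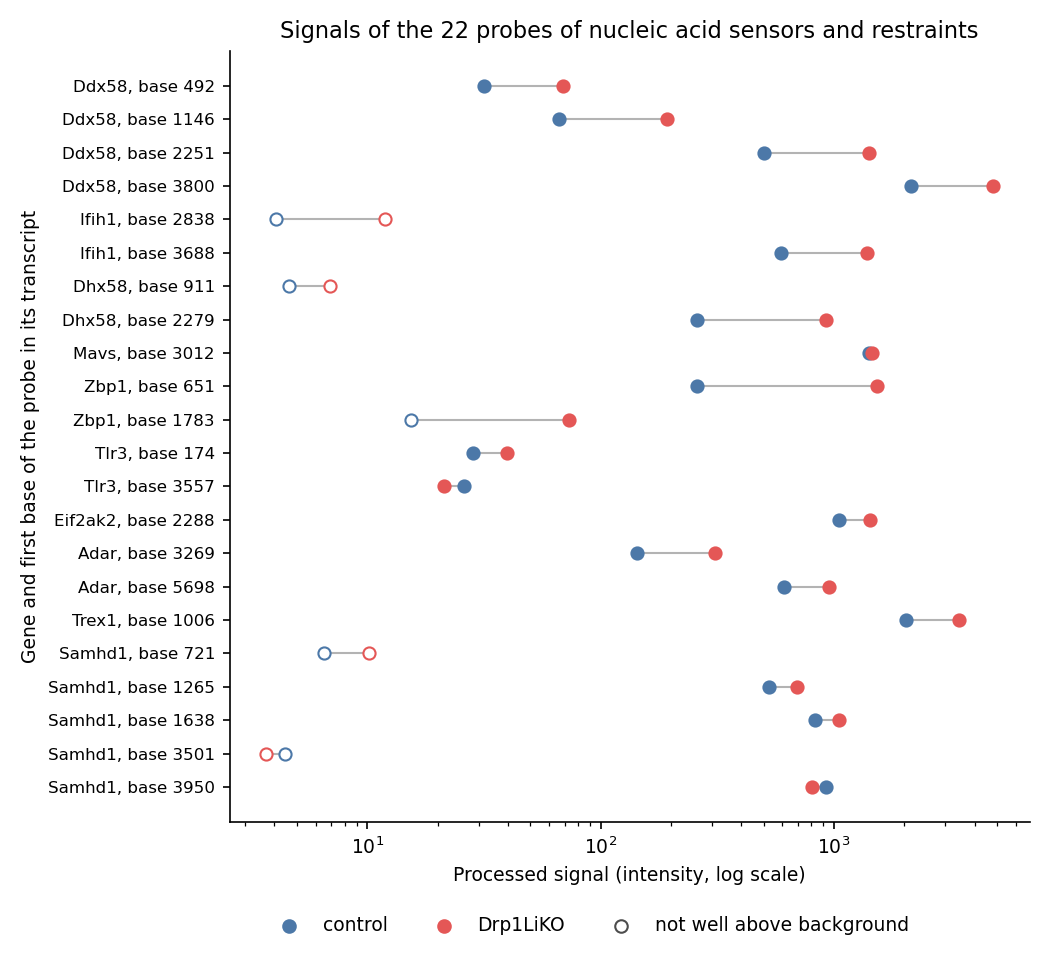
Processed signal (intensity, log scale) of each of the 22 probes on the control array (blue) and the *Drp1*LiKO array (red), 1 array each, with the first base of the probe in its transcript. Open circles were not well above background. The widest shift among probes with both circles filled is that of *Zbp1*, 259 to 1533, and the *Mavs* circles overlap at 1411 and 1456.

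Markers of other liver cells differed between the arrays as well, and macrophages and endothelial cells are known to carry nucleic acid sensors too. Of 18 markers of Kupffer cells and macrophages, the resident phagocytes of the liver, 16 were compared and 16 had ratios above 0, with 12 past the Z threshold and a median of 2.28. For 4 of them, detected on the *Drp1*LiKO array alone, the ratio is a bound and a high value was needed to be compared, and over the 12 measured on both arrays 10 were past the threshold, with a median of 2.43. Their summed signal was 11478 in control cells and 30516 in *Drp1*LiKO cells. The brightest were *Cd14*, with signals of 6407 and 8419, and *Cd68*, with 2346 and 9593. *Timd4* and *Cd163* were not well above background on either array, nor were *Clec4f*, *Vsig4*, *Mrc1* and *Fcgr1* in control cells. The other detected probes of *Mpeg1*, counted past the threshold, and *Csf1r* went the other way, at -0.49 and -0.02. Endothelial cell markers numbered 13, of which 3 were detected on the *Drp1*LiKO array alone. Of the 10 measured on both arrays, 6 were past the threshold on the high side, with a median of 1.80, against 8 and 1.66 over all 13. Their summed signal was 4713 in control cells and 10541 in *Drp1*LiKO cells. For *Stab2* another detected probe went the other way, at -0.25. Of 11 stellate cell markers 10 were compared, 5 of them as bounds, with a median of 1.45, or 1.04 over the 5 measured on both arrays. Their summed signals were 21964 and 30246, most of it *Acta2* with 21437 and 24640, and without it 527 and 5606. Other detected probes of *Acta2* had ratios up to 2.20. Monocyte markers went both ways, with 2 of the 4 compared higher and 1 lower past the threshold, and the direction of their sum rested on 1 gene. The sum was 23947 in control cells and 11787 in *Drp1*LiKO cells, and without *S100a4*, which read 23479 and 7359, it was 467 and 4428. Of dendritic cell markers 2 of 9 could be compared, *Siglech* with a ratio of 0.09 and *Ly6d* with one of 2.47, past the threshold. The 2 of 8 T and NK cell markers compared, *Cd3e* and *Cd4*, were at -0.37 and -0.47, but the other detected probe of *Cd3e* was at 0.26. Of neutrophil markers 3 of 6 were compared, with *Elane* at -0.21, *Camp* 1.30-fold higher and *Ly6g* at least 3.72-fold higher, the last past the threshold. *Camp* and *Ly6g* were not well above background in control cells. Of 4 B cell markers on the array, *Ms4a1* was detected, in *Drp1*LiKO cells alone at 16.9, below the lowest signal well above background in control cells. Cholangiocyte markers had a median of 0.09 over the 4 compared of 6.

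The hepatocyte label held on both arrays. All 18 hepatocyte markers were compared, with a median log2 ratio of 0.14 and a range from -1.05 to 2.03. The brightest were *Serpina1a*, with signals of 338486 in control cells and 339334 in *Drp1*LiKO cells, and *Alb*, with 219613 and 266703. *Pck1* in control and *G6pc* in *Drp1*LiKO cells were not well above background. The targeted gene, listed as *Dnm1l*, read 2602 in control cells and 1217 in *Drp1*LiKO cells on its brightest probe, a log2 ratio of -1.28 ± 0.072 and a Z score of -1.95. Its other probe was at 22.8 and 20.9, a ratio of -0.31. Whether either probe lies in the deleted part is not given in the sources used here. In such a culture a different number of cells of a type and a different amount of RNA per cell cannot be told apart.

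Among the cytosolic RNA helicases, *Dhx58* (LGP2) had the highest ratio. Its probe at base 2279 of NM_030150, on chromosome 11 of mm9 from 100556271 to 100556330, read 258 in control cells and 926 in *Drp1*LiKO cells. The log2 ratio was 1.66 ± 0.11, or 3.16-fold, with a Z score of 2.56, and 97.8% of all genes compared had a lower ratio. A further probe, at base 911 of an Ensembl transcript, read 4.60 and 6.93 and was not well above background on either array, so the call rests on 1 probe.

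*Ddx58* (RIG-I) was measured by 4 probes along NM_172689, all on chromosome 4 of mm9 and all higher in *Drp1*LiKO cells. Nearest the 5′ end, at base 492, the signal was 31.7 in control cells and 68.8 in *Drp1*LiKO cells, which gave a log2 ratio of 0.93. At base 1146 it was 66.2 and 193, a ratio of 1.36. At base 2251 it was 500 and 1410, a ratio of 1.31. These 2 probes were past the Z threshold, at 2.10 and 2.03. The brightest probe, at base 3800 and from 40151893 to 40151952, read 2141 in control cells and 4817 in *Drp1*LiKO cells. Its ratio of 0.99 ± 0.067, with a Z score of 1.53, represents the gene and falls short of the threshold. The 4 ratios spanned 0.43 on the log2 scale and shared 1 direction from the 5′ to the 3′ end, so the call, but not the direction, depended on the probe.

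*Ifih1* (MDA5) read 594 in control cells and 1382 in *Drp1*LiKO cells on its probe at base 3688 of NM_027835, on chromosome 2 of mm9 from 62435621 to 62435680. The log2 ratio was 1.04 ± 0.091, or 2.05-fold, with a Z score of 1.60. The second probe of the gene, for an Ensembl transcript, read 4.04 and 11.9 and was not well above background on either array. The ratios of *Ifih1* and *Ddx58* were 0.049 apart, less than the spot noise of that gap, 0.11.

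*Mavs*, the mitochondrial adaptor through which RIG-I and MDA5 signal, was the only gene of the group below 0 by its brightest probe. Other probes of *Tlr3* and *Samhd1* were lower than *Mavs*, at -0.47 and -0.38. The single probe of *Mavs*, at base 3012 of NM_144888 and on chromosome 2 of mm9 from 131073675 to 131073734, read 1411 in control cells and 1456 in *Drp1*LiKO cells. After scaling, the log2 ratio was -0.14 ± 0.075 with a Z score of -0.20, and 39.2% of all genes compared had a lower ratio. Thus the adaptor lay near the middle of all genes while the 3 helicases all had ratios of 0.99 or more.

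*Zbp1*, the sensor of Z-form nucleic acid, had the highest ratio of the 10 genes. The probe at base 651 of NM_001139519, on chromosome 2 of mm9 from 173039307 to 173039366, read 259 in control cells and 1533 in *Drp1*LiKO cells. The log2 ratio was 2.38 ± 0.11, or 5.21-fold, with a Z score of 3.66, and ranked 170 among the 20165 genes. This is the probe whose letters recurred in other promoters. The second probe, at base 1783 of NM_021394 and from 173032258 to 173032317, matched the promoters of 2 other genes. It read 15.4 in control, not well above background, and 72.9 in *Drp1*LiKO cells, which was, so that it entered the comparison only through the array on which it was high and lends no support to the first probe. Against the lowest signal well above background in control cells it was at least 3.53-fold higher, a log2 ratio of 1.82 with a Z score of 2.80. In the deposited table of normalized values, whose *Drp1*LiKO column departs from the *Drp1*LiKO array by over 2-fold for 3.57% of the probes above background, the same probe reads 17.5 in control cells and 7.90 in *Drp1*LiKO cells, the opposite direction, whereas the brighter probe kept a ratio of 2.34.

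*Tlr3*, the endosomal receptor for double-stranded RNA, gave low signals and no common direction. At base 174 of NM_126166 the signal was 28.3 in control cells and 39.8 in *Drp1*LiKO cells, which gave a log2 ratio of 0.31 ± 0.12. At base 3557 it was 25.9 and 21.3, a ratio of -0.47 ± 0.12. Both probes were only little above the lowest signals counted as well above background, 18.2 in control cells and 15.0 in *Drp1*LiKO cells, and neither passed the Z threshold. The error of 0.12 was the same for all dim probes and was not matched to signals this low. The scanner software gave errors of 4.83 and 5.14 on the signals of 28.3 and 39.8. On those of 25.9 and 21.3 it gave 5.04 and 4.11. *Eif2ak2* (PKR) read 1052 in control cells and 1425 in *Drp1*LiKO cells on its single probe, at base 2288 of NM_011163 and on chromosome 17 of mm9 from 79253868 to 79253927. The log2 ratio was 0.25 ± 0.076. In the deposited table its direction was opposite, at -0.21.

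By their brightest probes the restraints had smaller ratios than the helicases, and none passed the Z threshold. *Trex1*, the exonuclease that removes cytosolic DNA, read 2034 in control cells and 3422 in *Drp1*LiKO cells on its single probe (NM_011637, chromosome 9 of mm9 from 108960454 to 108960513). Its log2 ratio was 0.57 ± 0.069, or 1.48-fold, with a Z score of 0.88. *Adar*, which edits adenosine to inosine in double-stranded RNA, was measured by 2 probes of NM_001038587 on chromosome 3. At base 3269 the signal was 143 in control cells and 308 in *Drp1*LiKO cells, which gave a log2 ratio of 0.93 ± 0.12. At base 5698, the brighter of the pair, it was 610 and 947, a ratio of 0.45 ± 0.095. Both were higher in *Drp1*LiKO cells, but their ratios differed by 0.47.

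*Samhd1*, which hydrolyzes deoxynucleotides, had 5 probes on chromosome 2, and those detected did not share a direction. Probes at bases 1265 and 1638 of NM_018851 cover 1075 and 1354 bases of the genome with 60 bases, so each spans an intron. The first read 525 in control cells and 696 in *Drp1*LiKO cells, which gave a log2 ratio of 0.22 ± 0.10. The other, the brightest by the mean of both arrays, had 827 and 1055, a ratio of 0.17 ± 0.079. A probe at base 3950 of another transcript, NM_001139520, had 921 in control cells and 802 in *Drp1*LiKO cells, a ratio of -0.38 ± 0.090. The remaining 2 probes, both for Ensembl transcripts, were not well above background on either array, with signals from 3.68 to 10.2.

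**Figure D2:**
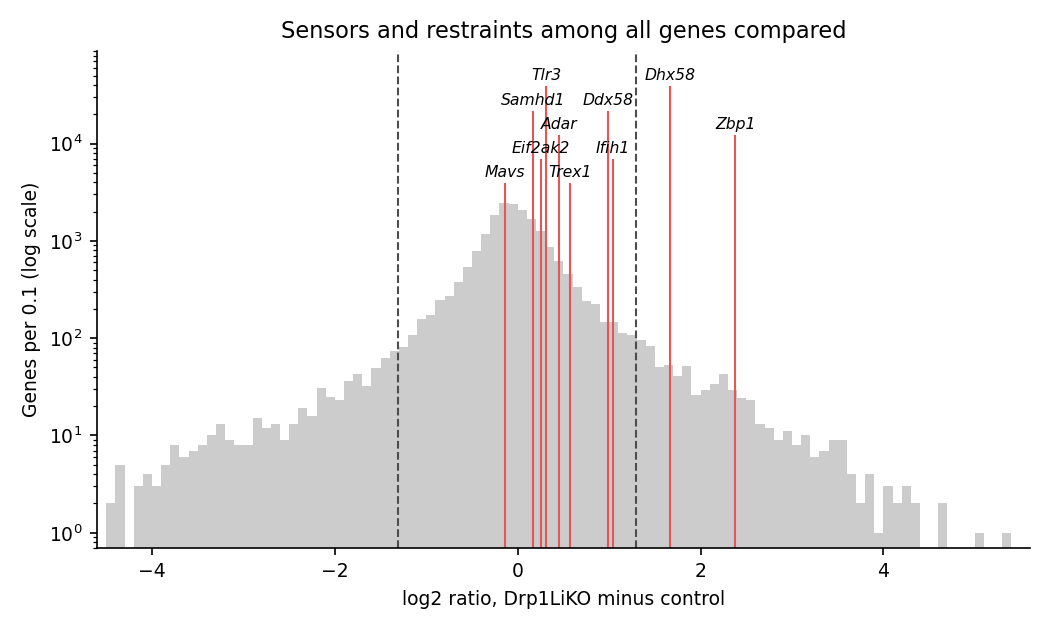
Log2 ratios (*Drp1*LiKO minus control) of the 20165 genes compared, as counts per 0.1 on a log axis (gray), with the 10 sensors and restraints as red lines whose height has no meaning. Dashed lines mark Z scores of -2 and 2. *Dhx58* at 1.66 and *Zbp1* at 2.38 lie beyond the upper line, *Ddx58* and *Ifih1* just within it, and *Mavs* at -0.14 near the middle.

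In order from the highest ratio, the genes were *Zbp1*, *Dhx58*, *Ifih1*, *Ddx58*, *Trex1*, *Adar*, *Tlr3*, *Eif2ak2*, *Samhd1* and *Mavs*. The gaps from *Zbp1* to *Dhx58*, 0.72, and from *Dhx58* to *Ifih1*, 0.63, were more than 2 SDs of the spot noise of the gap, as were those from *Ddx58* to *Trex1*, 0.42, and from *Samhd1* to *Mavs*, 0.30. Between *Ifih1* and *Ddx58*, and from each gene to the next among *Trex1*, *Adar*, *Tlr3*, *Eif2ak2* and *Samhd1*, the gap was within the spot noise. The 3 helicases and *Zbp1* were thus the highest by their brightest probes, above all 3 restraints. The other probe of *Adar*, at 0.925, lay beside the lowest of *Ddx58*, at 0.935. A further probe of *Samhd1*, at -0.38, lay below *Mavs*, at -0.14, so the order of these 2 genes depended on the probe.

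Over markers measured on both arrays, the median of macrophages, 2.43, lay above all 10 genes, and below *Zbp1* at 2.28 with bounds included. The median of endothelial cells, 1.80, lay above all but *Zbp1*, and at 1.66 beside *Dhx58* with bounds included. The part of these cells in the ratios of the sensors was not tested.

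Other genes of nucleic acid sensing and its control were read from a list of 113 genes, of which 112 were on the array and 104 were compared. Of these, 46 had ratios above 0 and 58 below. Past the Z threshold, 5 (4.81%) were higher in *Drp1*LiKO cells and 1 (0.962%) was lower, against 3.5% and 2.81% of all genes. Of these 5, *Ddx60*, *Pld4* and *Ifnb1* were compared only through the *Drp1*LiKO array, on which they were high. *Irf7* and *Tlr13* were measured on both arrays. The median of the 104 genes, -0.05, equaled that of all genes. As a list they thus lay close to the background, and the higher values were those of single genes.

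**Figure D3:**
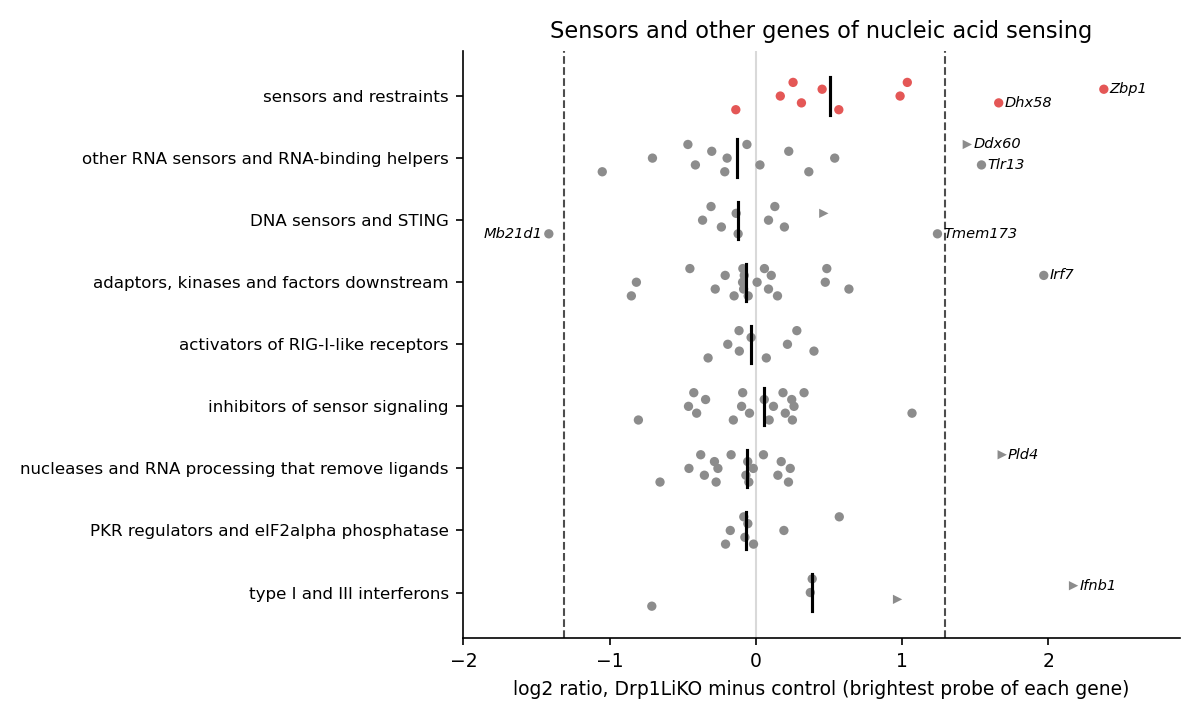
Log2 ratio (*Drp1*LiKO minus control) of the brightest probe of each gene, for the 10 sensors and restraints (red) and for 8 groups of other genes of nucleic acid sensing (gray). Vertical bars are medians and dashed lines Z scores of -2 and 2. Triangles are genes detected on the *Drp1*LiKO array alone, lower bounds except for *Pld4*. The sensors and restraints have a median of 0.51, and *Irf7*, *Ifnb1*, *Pld4*, *Tlr13* and *Ddx60* lie beyond the upper line.

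Among other RNA sensors and helpers, 2 of 14 were past the threshold. *Tlr13*, an endosomal receptor for bacterial ribosomal RNA, read 49.8 in control cells and 165 in *Drp1*LiKO cells, which gave a log2 ratio of 1.54, and its second probe was not detected on either array. *Ddx60* is an interferon-induced helicase reported to aid RIG-I. It was not well above background in control cells, at 8.22, and reached 56.4 in *Drp1*LiKO cells, at least 2.73-fold higher. Its other probe, likewise detected in *Drp1*LiKO cells alone, had a log2 ratio of at least 0.72. That bound falls short of the threshold, so the call depended on the probe. The lowest ratio in this group was that of *Rftn1* (raftlin), which aids the uptake of double-stranded RNA, with signals of 324 and 178 and a ratio of -1.05.

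The DNA sensing arm held ratios of both signs. *Mb21d1* (cGAS), which makes the messenger cGAMP from cytosolic DNA, was the 1 gene of the list past the threshold on the low side, with a signal of 270 in control cells and 115 in *Drp1*LiKO cells, which gave a log2 ratio of -1.42. Its other probe read 26.2 and 18.9, a ratio of -0.66. *Tmem173* (STING), the receptor of cGAMP, was higher in *Drp1*LiKO cells, with signals of 92.7 and 249, a ratio of 1.24 and a Z score of 1.92. The sensor and the receptor of this arm thus differed in sign. The other 9 genes of the arm had no ratio past the threshold.

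Of 20 adaptors, kinases and factors downstream, 1 was past the threshold. *Irf7*, the interferon-induced factor that amplifies interferon transcription, read 9848 in control cells and 43780 in *Drp1*LiKO cells, which gave a log2 ratio of 1.97, and 480 and 2400 on its second probe, a ratio of 2.14. *Irf3*, the factor present before induction, had a ratio of 0.11, and the kinase gene *Tbk1* one of -0.09. These 2 were chosen after their values were seen. *Irf5* was the lowest of the group, at -0.85.

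No gene passed the threshold among 9 activators of RIG-I-like receptors, 19 inhibitors of sensor signaling, or 8 regulators of PKR and eIF2alpha. Activators ran from -0.33 for *Ppp1ca*, a phosphatase subunit that activates RIG-I and MDA5, to 0.40 for *Trim65*, the ubiquitin ligase of MDA5. The other detected probe of *Trim65* went the other way, at -0.16. Inhibitors ran from -0.80 for *Dnajc3*, an inhibitor of PKR, to 1.07 for *Nlrc5*, also known as transactivator of MHC class I genes, which had signals of 519 and 1235. The other detected probe of *Nlrc5* had a ratio of -0.20, so its direction depended on the probe. PKR regulators ran from -0.21 for *Ppp1r15b* to 0.57 for *Ppp1r15a* (GADD34), both of which direct the dephosphorylation of eIF2alpha.

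Among 18 nucleases and RNA processing factors compared, *Pld4*, an endolysosomal exonuclease, was past the threshold. It was not well above background in control cells, at 18.7, and reached 68.3 in *Drp1*LiKO cells, 3.22-fold higher after scaling. The control signal lay above the lowest signal well above background, 18.2, so it was not raised and the ratio is no bound. The lowest was *Rnaseh2a*, the catalytic subunit of RNase H2, at -0.66. Of the interferon genes themselves, 5 of 9 on the array were compared. *Ifnb1* was not well above background in control cells, at 6.27, and reached 93.3 in *Drp1*LiKO cells, at least 4.51-fold higher. *Ifna5* was the lowest, with signals of 39.8 and 27.6 and a ratio of -0.71.

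**Figure D4:**
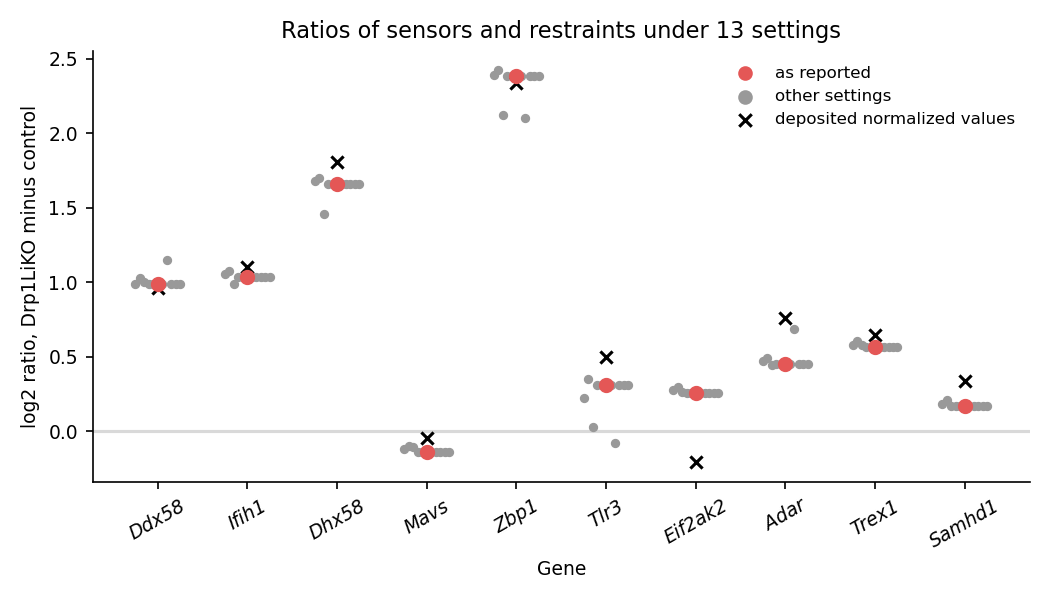
Log2 ratio (*Drp1*LiKO minus control) of each gene as reported (red), under 11 other ways of processing the arrays (gray) and from the deposited normalized values (crosses). *Zbp1* stays between 2.10 and 2.42 and *Mavs* between -0.14 and -0.04, whereas *Tlr3* and *Eif2ak2* each fall below 0 in 1 setting. Settings that alter only the filter, the floor, the Z score or the call leave these ratios unchanged.

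The ratios were recomputed under other ways of processing the arrays. Settings that alter only the filter, the floor, the Z score or the call leave a ratio measured on both arrays unchanged. All 10 genes were so measured by their brightest probes, so in those settings no ratio or sign could move. Over 13 settings, *Zbp1* ranged from 2.10 to 2.42 and passed the threshold in 13, *Dhx58* ranged from 1.46 to 1.81 and passed in 12, *Ifih1* was at 0.99 or more and passed in 5, and *Ddx58* ranged from 0.96 to 1.15 and passed in 4. The 2.10 of *Zbp1* was the median over its probes and so drew on the second, a bound. *Trex1*, *Adar* and *Samhd1* were above 0 in all 13 and passed in 0. *Mavs* was below 0 in all 13.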

How the data were processed

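RNA of primary hepatocytes was labeled with Cy3 and hybridized to 1-color Agilent arrays with probes of 60 bases, 1 array per genotype. The authors deposited the processed intensity of every spot, corrected for background by Agilent Feature Extraction (9.5.1.1 per the submitters' processing notes), and a normalized intensity table used only as an alternative, since 1053 of 29464 probes of its *Drp1*LiKO column departed from the array over 2-fold, against 0 of 27259 in control.

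From the deposited intensity, log2 signals without outlier spots were averaged per probe and scaled to the 75th percentile. Probes that stood well above background on either array were compared. Dim signals below the lowest signal well above background on that array were raised to it, which makes their ratios bounds. No transcript spot was saturated. Spot noise came from 300 probes printed 10 times, as the median SD of the 50 nearest in signal. Probes of the 10 genes with control signals from 15.4 to 143 all received the same SD of a ratio, 0.12. For dim probes the noise was thus not matched in signal. The number of arrays limits the precision.

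The genes and lists were chosen with earlier results of these data known. Besides the 10 genes and *Dnm1l*, the text names, in each group of the pathway list and direction, genes past a Z score of 2 (the threshold value the study names), or else the highest or lowest measured on both arrays, and the 2 brightest of the macrophage and hepatocyte markers. *Irf3*, *Tbk1* and the other marker genes fall outside this. Coordinates are those of the files (mm9) and promoters RefSeq's (GRCm38.p6). Of the list names, *Ifnl2* and *Ighm* were not on the array. The steps were tested on simulated data. Python 3.11.15, numpy 2.4.6, pandas 2.3.3, matplotlib 3.10.9, R 4.3.3 and limma 3.58.1 were used.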

Additional observations from a re-analysis of the deposited data

How the results depend on the processing

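The 12 alternatives were quantile normalization, spike-in scaling, normexp background correction, the deposited values, no filter on dim probes, probes above background on both arrays, no floor, outlier spots kept, the median over the probes of a gene, a robust Z score, a local Z score (taken over probes of similar signal), and 2-fold in place of the Z score. Of the 10 genes, 4 were higher past the threshold with normexp, no filter, the robust and the local Z score, and 1 with no floor, where *Dhx58* at 1.66 fell short. None was lower in any. *Tlr3* was at -0.08 with the median of its probes and *Eif2ak2* at -0.21 in the deposited values. By its other probe, a setting chosen after seeing the data, *Zbp1* was at 1.82, a bound. That probe was compared only through the *Drp1*LiKO array and went the other way in the deposited values, so it lends no support. Of the pathway list, 8 genes were higher with no filter and with the robust Z score, 3 with detection on both arrays and 2 with the local Z score. On the low side there were 2 with the deposited values and with 2-fold, 5 with the robust Z score, and 0 with no floor and with the median of probes. *Dnm1l* passed the threshold at -1.21 with normexp, at -1.34 in the deposited values, and at an unaltered -1.28 with no filter, detection on both arrays, the robust and local Z scores and 2-fold. With no filter the median of all genes was -0.47, and 69.4% of called genes were higher, against 55.5%. Over all 20165 genes compared, 705 were higher and 566 lower, with 1722 and 1443 by the robust Z score and 1073 and 925 by 2-fold. Higher over all genes were 1355 with no filter, 731 with normexp, 639 with the local Z score, 821 with no floor and 619 with detection on both arrays. Lower were 576 in the deposited values, 511 with no floor and 554 with the median of probes. With the robust Z score and no filter the counts over all genes thus rose too, and with no filter more genes were compared. The causes were not tested. No paired analysis was possible because there was 1 array per genotype and no test. Leaving out a replicate was not possible for the same reason.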
